A study of Mus musculus with 6 samples.

Results

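The genes described here, with exceptions named below, encode proteins of the cytoplasmic ribosome, the particle that translates mRNAs in the cytoplasm. They were chosen by symbol, as Rpl or Rps followed by a digit together with Rplp0, Rplp1 and Rplp2, leaving out the Rps6k kinases and names ending in -ps. This gave 57 genes, measured by 77 probes, of 8529 named genes and 14604 probes tested in all. Each of the 77 probes with such a name passed the filter on detection, so no listed member was lost to it.

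Total RNA of mouse embryonic stem (ES) cells was hybridised to Illumina Mouse WG-6 BeadChips, which give 1 signal intensity per probe and array. In 3 of the samples Prdm14, a PR domain gene of germ cells and pluripotent cells, was overexpressed, and the other 3 carried a control vector. All 6 were of the 129P2 background, and the stable lines were made from a Rex1-GFPd2 reporter line, which carries GFP at the naive pluripotency gene Zfp42, and were grown with serum. Replicates were taken at consecutive passages, with no separate clones named, so the p-values cover passage-to-passage spread only, and differences that came with the vector or the line cannot be told apart from an effect of Prdm14.

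Ribosomes have a small subunit, which decodes the mRNA, and a large subunit, which forms the peptide bond, each built of ribosomal RNA and a set of proteins that are mostly needed in equal numbers. Their mRNAs are among the most abundant of dividing cells. In vertebrates most of them begin with a C and a run of pyrimidines at the 5′ end, the terminal oligopyrimidine (TOP) motif. Through it mTOR signalling controls their translation, a step that mRNA levels do not measure. ES cells held in the naive state by kinase inhibitors are known to express less Myc, an activator of ribosomal protein genes, than cells in serum. The comparison asked whether this large set of genes differed in mRNA level when Prdm14 was raised in serum culture.

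Shared start sequences were read first, since they are a feature that the choice of members did not use. The RefSeq table used here held a transcription start for 48 of the 57 genes, with 58 starts in all. A C followed by at least 4 pyrimidines (C or T), on the gene's own strand and with the C within 10 bases of the annotated start, stood at 31 of the 58 starts (53.4%), against 32.2% of the 8899 starts of all tested genes and 30.7% of all 32851 starts in the table. Counted by gene, 29 of the 48 had at least 1 such start (60.4%), against 37.2% of tested genes. The windows of 5 genes are shown because results turn on them or, for Rps6 and Rpl38, because their run begins closest to the annotated start, as it does in Rps15a and Rpl34; at all other starts with a run it began further away. Each has 15 bases before the annotated start and 15 from it, on the gene's strand, with the pyrimidine run in capitals.
Rpl38, chr11:114668565-114668594, plus strand: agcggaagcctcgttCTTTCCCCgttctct
Rps6, chr4:86857353-86857382, minus strand: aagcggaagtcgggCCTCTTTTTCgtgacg
Rpl36a, chrX:134585639-134585668, plus strand: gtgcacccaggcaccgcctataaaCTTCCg
Rpl3l, chr17:24727811-24727840, plus strand: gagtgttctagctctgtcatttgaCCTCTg
Rplp0, chr5:115559452-115559481, plus strand: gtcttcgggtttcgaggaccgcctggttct
Coordinates are of GRCm38.p6. In Rpl38 the run begins at the annotated first base and in Rps6 next to it, whereas in Rpl36a and Rpl3l a shorter run begins further in. The Rplp0 window held no such run, which says only that these letters are not in this window. Rpl3l has another annotated start, whose window also held none.

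The signal of most ribosomal protein probes lay at the top of the array's range. By mean normalized value, 49 of the 57 genes were among the brightest 10% of tested genes, the median member ranked at the 99.4th percentile, and members made up 26 of the 50 and 37 of the 100 brightest genes. A bead signal depends on the probe as well as on the transcript, so the ranks say where these signals sit and not which mRNA was more abundant. The 8 members below the top 10% were Rplp0 (76.5th percentile), Rpl22 (78.8), Rps3a1 (61.8), Rps19bp1 (59.1), Rpl21 (39.1), Rpl3l (24.3), Rpl22l1 (8.32) and Rps15a (4.22). The last pair were the only members not detected on every array, each being detected on all 3 overexpression arrays and 2 of the 3 control arrays.

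**Figure D1:**
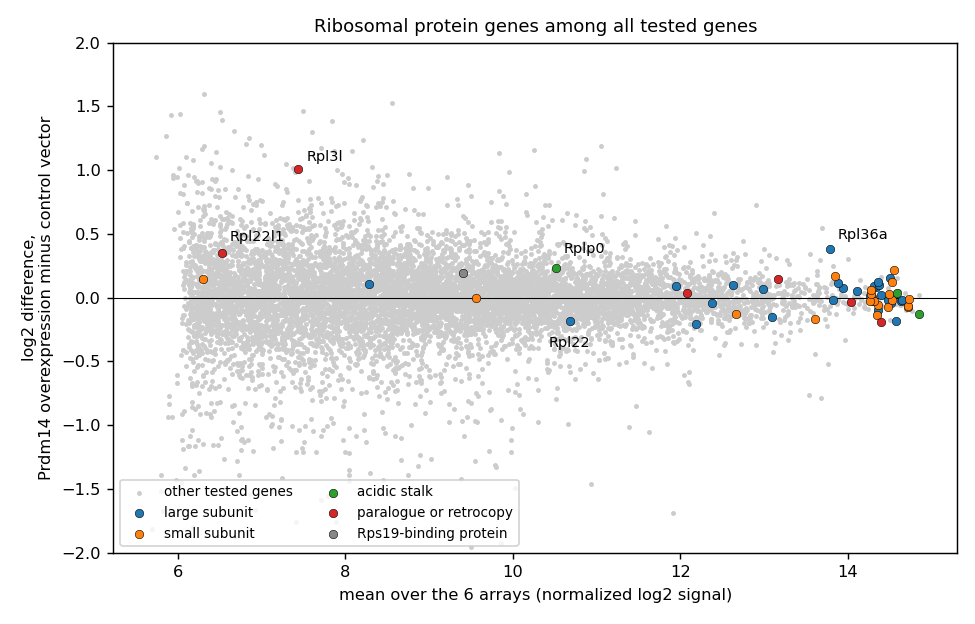
Each point is 1 gene, at its mean normalized log2 signal over the 6 arrays (horizontal axis) and its log2 difference, Prdm14 overexpression minus control vector (vertical axis), with ribosomal protein genes coloured by role and all other tested genes in grey. Most ribosomal protein genes sit at the bright end within 0.25 of 0, and Rpl3l stands at 1.01; 15 other genes lie outside the plotted range of -2 to 2.

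After normalization, the signals of most ribosomal protein genes differed little between Prdm14 overexpressing cells and control cells. Of the 57 genes 1 passed the threshold of 0.01 (limma, Benjamini-Hochberg over all tested genes), the muscle paralogue Rpl3l, which was higher, where 4.64% of all tested genes passed and 1.75% passed as higher. The median log2 difference over the 57 genes was 0.014, with quartiles of -0.045 and 0.10, and that of all tested genes was -0.0016. Quantile normalization gives all arrays the same distribution, and members hold much of its top end. The members' median was thus partly fixed by it and says little about a shift of the whole set. Differences were positive for 31 members and negative for 26. Their size was under 0.25 for 54 of the 57 (94.7%), against 71.5% of all tested genes.

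The precision of these arrays applies to differences in signal. Standard errors of the members' differences ran from 0.085 to 0.16 on the log2 scale, and every value after a ± sign below is such an SE from limma with 3 arrays per group. The 95% confidence interval lay wholly within ±0.5 for 53 of the 57 members (93.0%) and for 64.9% of all tested genes, the exceptions being Rpl3l, Rpl36a, Rpl22l1 and Rplp0. Most members lie where signals are highest, and whether the bead signals or the normalization compress differences there was not tested. Other bright probes also differed less: among the 804 other genes in the top 10% of signals 10 passed the threshold, and 88.3% were under 0.25 in size. Among the 49 members in that range none passed in limma, 2 had an unadjusted p under 0.05, and 48 were under 0.25 in size.

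Counts without adjustment were also low. An unadjusted p under 0.05 was found for 4 members, Rpl3l, Rpl36a and Rpl22l1 with higher and Rpl30 with lower values in overexpressing cells, where 25% of all tested genes had one. The 3 overexpression values all lay on one side of the 3 control values for 10 members, 6 above and 4 below, while this held for 29.9% of all tested genes. The 6 above were Rpl3l, Rpl36a, Rps10, Rpl10a, Rpl4 and Rps19bp1, and the 4 below were Rpl30, Rps27l, Rps15 and Rpl19. With overexpression array 1 or 3 left out, where 5 arrays remain and overlap is rarer by construction, the count was 24 or 16. The share of all tested genes was not counted with an array left out, so these counts have no background.

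**Figure D2:**
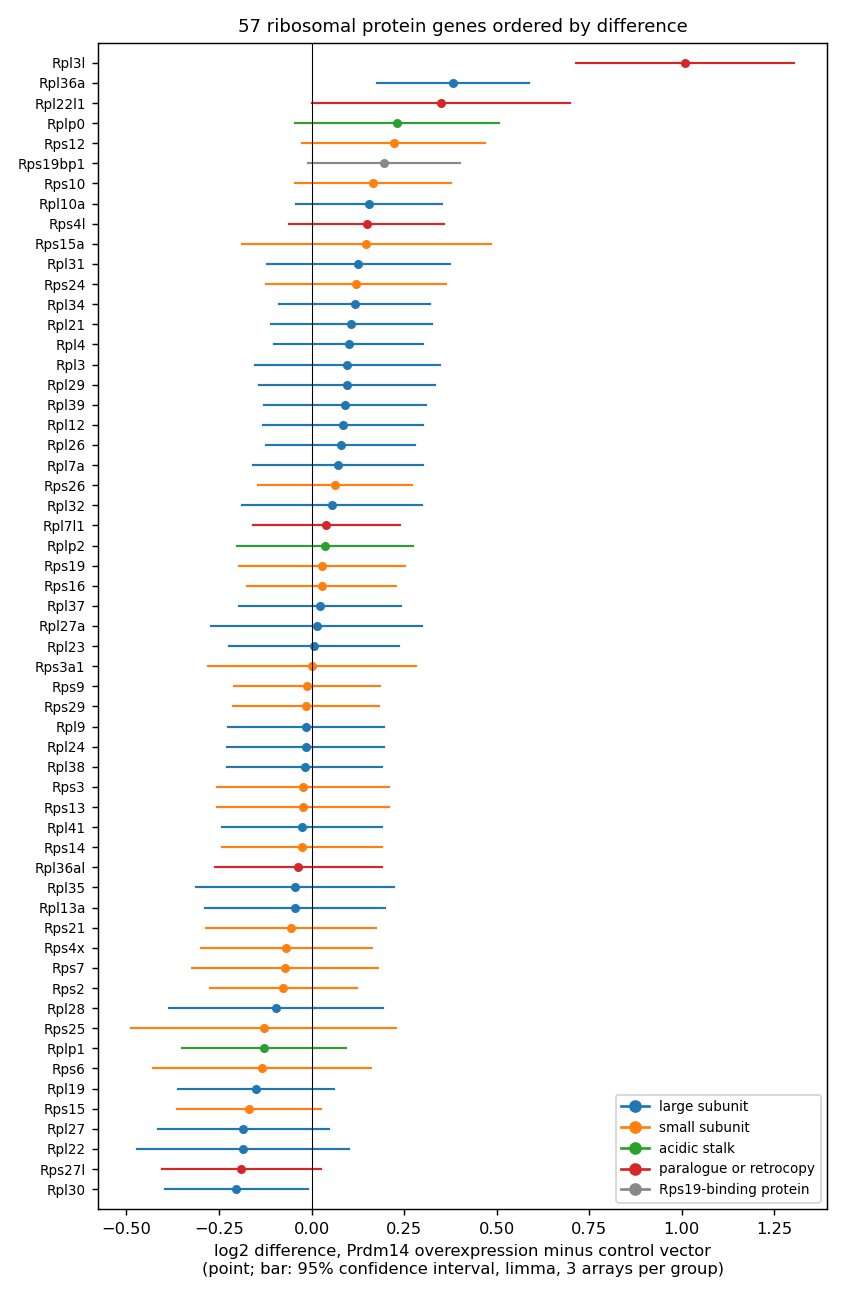
The log2 difference of each of the 57 genes, Prdm14 overexpression minus control vector (horizontal axis), is ordered from the highest at the top to the lowest at the bottom, with bars for the 95% confidence interval (limma, 3 arrays per group) and colours for roles. Only the intervals of Rpl3l, Rpl36a, Rpl22l1 (just above 0 at its lower end) and Rpl30 leave out 0.

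Rpl3l encodes a form of the large subunit protein RPL3 that is made in heart and skeletal muscle, where it takes the place of RPL3, a protein close to the peptidyl transferase centre. Its probe gave signals of 349, 322 and 322 in Prdm14 overexpressing cells, against 161, 138 and 179 in control cells. On the normalized log2 scale these were 7.76, 8.12 and 7.94 in overexpressing cells, against 7.06, 6.73 and 7.00 in control cells. All overexpression values lay above all control values, and the probe was detected on all 6 arrays. The gene rose by a log2 difference of 1.01 ± 0.13 (95% confidence interval 0.71 to 1.30), or 2.01-fold, with a limma adjusted p of 0.00200.

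The size of the Rpl3l difference moved with the background. The signal is dim, and the median of never-detected probes was 73.3 to 81.2 on the overexpression arrays, against 59.6 to 62.8 on the control arrays. With no background correction the log2 difference was 0.76 (limma adjusted p = 0.000516), and it was 0.49 (0.00129) in the lumi-normalized values once their columns were matched to arrays. Leaving out each array in turn left it past the threshold, with adjusted p from 0.00476 to 0.00809.

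No tested neighbour of Rpl3l on chromosome 17 passed the threshold in limma, and 1 of 5 tested muscle genes did. The neighbouring ribosomal protein gene Rps2 differed by -0.076 ± 0.087, Tbl3 by 0.12, Msrb1 by 0.089 and Ndufb10, a subunit gene of respiratory complex I, by 0.56 (limma adjusted p = 0.0160). Of 30 striated muscle genes, a list chosen after the value of Rpl3l was seen, 5 were tested. The atrial myosin light chain gene Myl7 rose by 0.63 (limma adjusted p = 0.00494), and the differences were -0.50 for Des, -0.30 for Tnnt1, -0.25 for Ttn and -0.018 for Myl4, none of them past the threshold. The normalized linear signals of the 5 summed to 1979 to 2236 on the overexpression arrays and to 2074 to 2254 on the control arrays, and no probe named for the muscle regulators Myod1 and Myog or for Ckm and Actc1 was tested. Whether cells with muscle gene expression had a part in the Rpl3l value was not tested.

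The general form Rpl3 was not called. Its normalized log2 values were 14.35, 14.56 and 14.35 in overexpressing cells, against 14.48, 14.25 and 14.24 in control cells. The groups overlapped, and the difference of 0.10 ± 0.11 had a 95% confidence interval of -0.15 to 0.35.

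Rpl36a, on the X chromosome, had the next largest difference and fell short of the threshold. It encodes a large subunit protein at the exit site for tRNA. Its signals were 18772, 16040 and 15542 in overexpressing cells, against 10331, 12903 and 12399 in control cells. On the normalized log2 scale they were 14.03, 13.91 and 13.97 in overexpressing cells, against 13.53, 13.67 and 13.57 in control cells. The groups did not overlap on either scale. The difference was 0.38 ± 0.091, or 1.30-fold, with a limma adjusted p of 0.0307. It passed with trended robust variances (adjusted p = 0.000645) and in the lumi-normalized values matched to arrays (0.00305). Rpl36al, an autosomal gene for a nearly identical protein, differed by -0.036 ± 0.099, with overlapping groups.

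**Figure D3:**
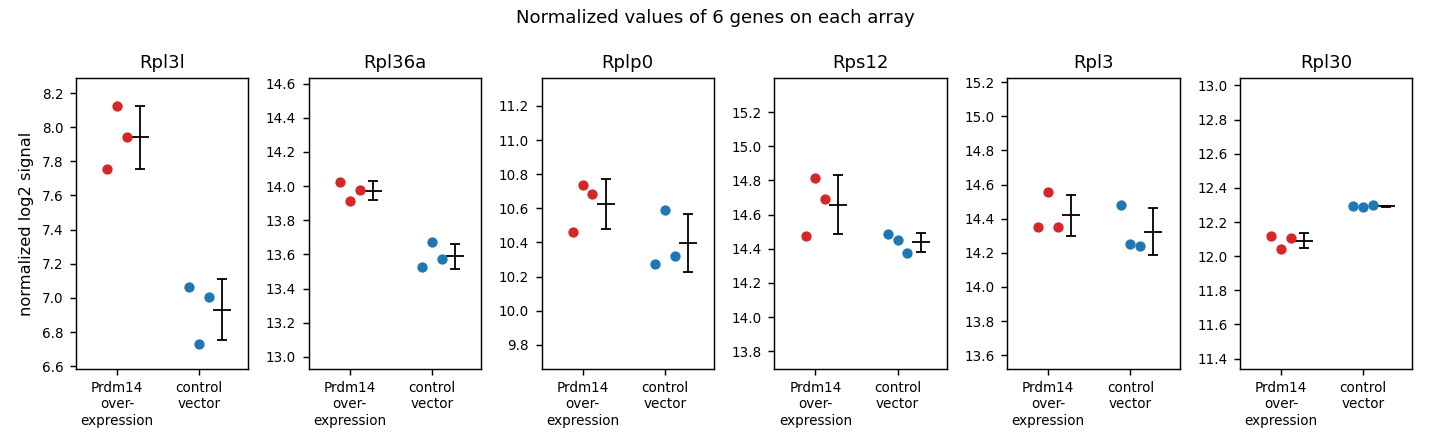
Normalized log2 signals (vertical axes, each spanning the same range) of 6 ribosomal protein genes are plotted by array, with Prdm14 overexpression (red) left of control vector (blue) and the mean and SD (n = 3 arrays) beside the points. The groups are apart for Rpl3l and Rpl36a, with overexpression above, and for Rpl30, with overexpression below, and they overlap for Rplp0, Rps12 and Rpl3.

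The other X-linked members gave smaller values. Rps4x, a small subunit gene, differed by -0.068 ± 0.10 and Rpl39, which encodes a small protein lining the peptide exit tunnel, by 0.090 ± 0.096.

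The stalk proteins, which recruit elongation factors to the large subunit, showed no common direction. Rplp0 (also called Arbp), the base of the stalk, which the study used as a reference transcript in its single-cell PCR of germ cells, had normalized log2 values of 10.46, 10.74 and 10.68 in overexpressing cells, against 10.27, 10.59 and 10.32 in control cells. The groups overlapped on 1 array of each. The difference was 0.23 ± 0.12 (95% confidence interval -0.05 to 0.51; limma adjusted p = 0.287).

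Rplp1 and Rplp2, the acidic proteins at the tip of the stalk, differed by -0.13 ± 0.098 and 0.037 ± 0.10. The Rplp1 probe gave signals of 32944, 29471 and 28012 in overexpressing cells, against 29084, 29501 and 30206 in control cells. It was the brightest on each control array and on overexpression array 1, and quantile normalization sets such probes to the same value, 14.91 on all 4. The spread of its control values is thus 0 by construction, and its difference rests on overexpression arrays 2 (14.65) and 3 (14.79).

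Most large subunit genes held close to 0. The 27 large subunit members outside the stalk and the paralogues, Rpl36a (0.38) included, had a median difference of 0.023. None of them passed the threshold in limma, and 2, Rpl36a and Rpl30, had an unadjusted p under 0.05. Rpl30, an RNA-binding protein that in yeast represses the splicing of its own transcript, was the lowest of all 57 members. Its normalized log2 values were 12.12, 12.04 and 12.11 in overexpressing cells, against 12.29, 12.29 and 12.30 in control cells, a difference of -0.20 ± 0.085 (limma adjusted p = 0.178). These groups did not overlap, but the signals before normalization did, at 5524, 4125 and 4515 in overexpressing cells, against 4295, 4782 and 5166 in control cells. The differences of Rpl27 (-0.18), Rpl22 (-0.19) and Rpl19 (-0.15), which forms a bridge between the subunits, had 95% confidence intervals that took in 0.

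Small subunit genes likewise showed no called member. The 20 of them had a median difference of -0.019, and none had an unadjusted p under 0.05. Rps12 was the highest, with normalized log2 values of 14.47, 14.81 and 14.69 in overexpressing cells, against 14.48, 14.45 and 14.38 in control cells. Overexpression array 1 lay among the control values and the other two above them, and the difference was 0.22 ± 0.11 (limma adjusted p = 0.254). At the other end Rps15, which reaches towards the decoding site, differed by -0.17 ± 0.086 without overlap between groups. Rps6, the substrate of the S6 kinases downstream of mTOR, had values of 14.10, 14.22 and 14.53 in overexpressing cells, against 14.31, 14.38 and 14.56 in control cells. Its groups overlapped, and the difference was -0.13 ± 0.13.

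A short list was read of genes whose human counterparts are mutated in Diamond-Blackfan anaemia, a failure of red cell production. It does not hold every gene reported in that disease. Its 5 tested members, Rps7, Rps10, Rps19, Rps24 and Rps26, had a median difference of 0.063 and none was called, with differences between -0.072 for Rps7 and 0.17 for Rps10. Rps19, the gene most often mutated in that disease, differed by 0.028 ± 0.099. Rps19bp1 fits the symbol rule but encodes a protein that binds RPS19, not a ribosomal protein. It differed by 0.20 ± 0.090 (limma adjusted p = 0.219) without overlap between groups.

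Rpl10a, Rpl38 and Rps25 were singled out after their values were seen, because their proteins have been linked to the translation of selected mRNAs. Rpl10a, whose protein is present in only some ribosomes of mouse ES cells, had normalized log2 values of 14.53, 14.60 and 14.63 in overexpressing cells, against 14.45, 14.45 and 14.39 in control cells. The groups did not overlap, but the difference of 0.15 ± 0.086 was not called (limma adjusted p = 0.315). Rpl38, which in mouse embryos is needed for the translation of Hox mRNAs, differed by -0.019 ± 0.092, with a 95% confidence interval of -0.23 to 0.19. Rps25, known for a role in initiation at internal entry sites, differed by -0.13 ± 0.16, the least precise value of all members.

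Paralogues other than Rpl3l did not pass the threshold. Rpl22l1, a paralogue that in mouse is repressed by RPL22, had normalized log2 values of 6.90, 6.39 and 6.82 in overexpressing cells, against 6.14, 6.45 and 6.46 in control cells. Its dim groups overlapped, and the difference was 0.35 ± 0.15 (limma adjusted p = 0.200). Rpl22 itself differed by -0.19 ± 0.13 (adjusted p = 0.417). Rps27l, known in human cells as a p53-inducible paralogue of RPS27, had values of 14.31, 14.20 and 14.38 in overexpressing cells, against 14.50, 14.41 and 14.55 in control cells. All its overexpression values were lower, by 0.19 ± 0.095 on average, with an adjusted p of 0.261. Rpl7l1, a Rpl7 paralogue with a role in ribosome assembly, differed by 0.040 ± 0.088, and Rps4l, which RefSeq lists as a transcribed pseudogene, by 0.15 ± 0.093.

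Across the set, no array stood apart after normalization. After each gene was centred on its mean over the 6 arrays, the median of the 57 genes was -0.023, 0.0033 and 0.068 on overexpression arrays 1 to 3, against 0.016, 0.013 and -0.029 on control arrays 1 to 3. The ranges of the groups overlapped, with overexpression array 3 the highest and control array 3 the lowest. Before normalization the median member signal was 20387, 20759 and 18612 on the overexpression arrays, against 17958, 19234 and 18496 on the control arrays. Of the summed normalized signal of tested probes, the 77 probes took 5.23% to 5.37% on the overexpression arrays. On the control arrays they took 5.26% to 5.34%. Quantile normalization gives all arrays the same distribution, and members hold much of its top end. The shares and the centred medians were thus partly fixed by the normalization and say little about a shift of the whole set.

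**Figure D4:**
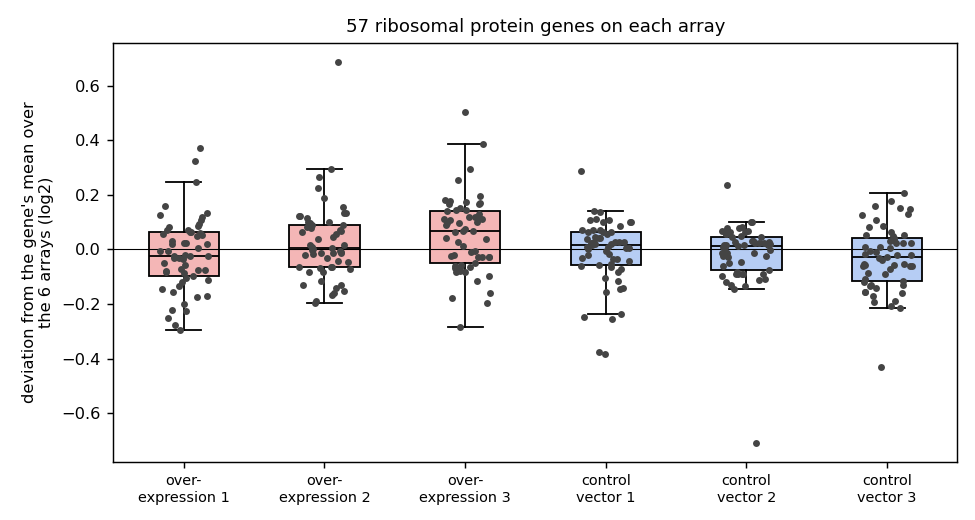
For each array, with the 3 Prdm14 overexpression arrays left of the 3 control vector arrays, points show the 57 genes as the deviation from their own mean over the 6 arrays (log2, vertical axis), and boxes show the median and quartiles with whiskers to 1.5 times the interquartile range. The medians lie between -0.029 and 0.068, and the highest and the lowest point are both Rpl3l, on overexpression array 2 and control array 2.

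Several probes of one gene gave a further check. Of the 57 genes 15 were measured by more than 1 probe (35 probes), and the other 42 by a single one. Of the 77 probes 1 passed the threshold in the fit over all probes, that of Rpl3l, against 3.5% of all 14604. In 9 of the 15 genes (Rpl21, Rpl23, Rpl27a, Rpl28, Rpl29, Rpl30, Rps12, Rps19 and Rps2) the probes had both signs, none of them called. For Rps12 the brighter probe gave 0.22 and the other -0.010, and for Rpl30 the brighter gave -0.20 and the other 0.034. The 3 Rps24 probes all gave positive differences, 0.11, 0.12 and 0.29 (lowest limma adjusted p = 0.202). Ribosomal protein genes have many processed copies in the genome, and 43 of the 57 had named pseudogenes in RefSeq, 214 in all. Whether such transcripts added to the signals was not tested.

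**Figure D5:**
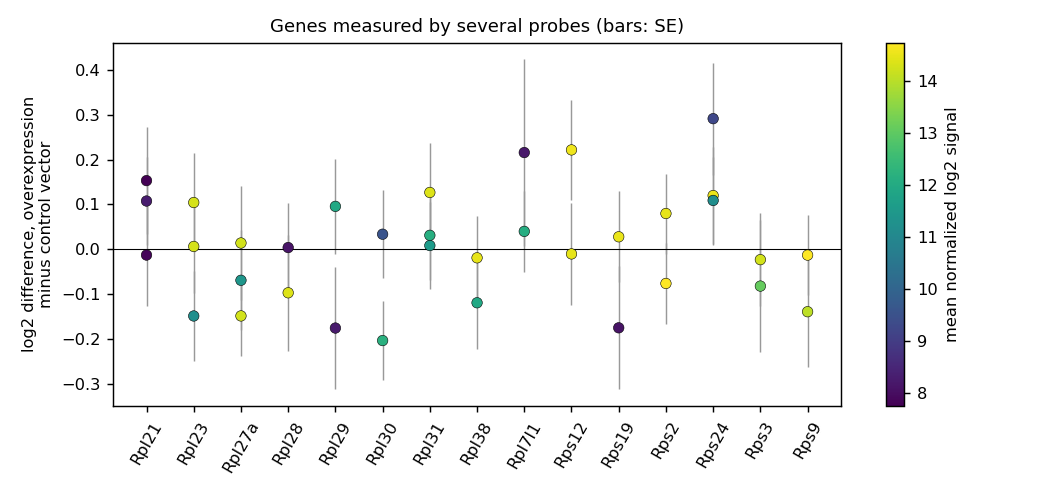
For the 15 genes with more than 1 tested probe, each point is 1 probe, with its log2 difference, Prdm14 overexpression minus control vector (vertical axis), a bar of ±1 SE, and the mean normalized log2 signal in colour. Probes of 9 genes lie on both sides of 0, and none of the 35 probes passed the threshold.

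Genes that build, serve or regulate the ribosome were read beside its proteins. No member of 4 lists, which share genes, passed the threshold in limma, where 4.64% of all tested genes passed. An unadjusted p under 0.05, counted below for each list, was found for 25% of all tested genes. Of 42 tested translation factors 3 had an unadjusted p under 0.05, all higher, and the list's median difference was 0.020. The 3 were Eif3h, a subunit of initiation factor 3 (0.61, limma adjusted p = 0.0371), Eif2s2, the beta subunit of initiation factor 2 (0.34, 0.0436), and the recycling factor gene Abce1 (0.42, 0.0471). The Eif3h probe was dim and was detected on all 3 overexpression arrays but on 1 control array, so signal over background limits its value. The elongation factor genes Eef1a1 and Eef2, whose mRNAs carry TOP motifs like those of ribosomal proteins, differed by -0.093 and 0.022. Of 82 tested ribosome biogenesis genes 5 had an unadjusted p under 0.05, and the median was 0.028, with 0.077 for Npm1 and 0.11 for Ncl, which encode abundant nucleolar proteins. The 14 tested genes of the list of ribosome-bound proteins and TOP mRNAs had a median of 0.040, with 2 unadjusted p-values under 0.05. All but Naca, Btf3 and Hnrnpa1 are also in the translation factor or biogenesis list, so this list is not separate from them. The 2 were Eif3h, already counted above, and Hnrnpa1 (0.29, limma adjusted p = 0.109). Among 21 tested mTOR and MYC regulators the median was 0.032, and 1 had an unadjusted p under 0.05, Rps6ka3, which encodes an S6 kinase of the RSK family (0.42, adjusted p = 0.0418). Myc itself, dim on all arrays, differed by 0.22 (0.317).

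By their Prdm14 signals, the 6 arrays matched the group labels of the signal intensities used here. The brighter Prdm14 probe gave signals of 14907, 10751 and 11016 in overexpressing cells, against 801, 673 and 855 in control cells. All 12 pluripotency markers were tested and none was called in limma. An unadjusted p under 0.05 was found for 5 of them, against 25% of all tested genes. Of these, Klf4 (0.65, limma adjusted p = 0.0105), Nanog (0.34), Tdgf1 (0.34) and Zfp42 (0.25) were higher, and Lin28a (-0.42) was lower. Normalized linear signals of the 12 markers summed to 85491 to 86421 on the overexpression arrays and 80316 to 81814 on the control arrays. Of the markers of other cell types 4 of 11 for primitive endoderm, 4 of 8 for trophectoderm, 4 of 10 for fibroblasts or feeder cells and 3 of 6 for neural cells were tested. Called among them, where 4.64% of all tested genes passed, were Lama1, Krt8, Krt18, Acta2 and Map2, which were lower, and Fbln2, which was higher. Krt18 and Acta2 passed the detection filter only through the 3 control arrays, being detected on 0 of the 3 overexpression arrays. The size of their differences thus rests on background. The other primitive endoderm markers had positive differences without passing, 0.44 for Col4a1, 0.66 for Col4a2 and 0.38 for Sox7. So had the neural markers Nes (0.51) and Ncam1 (0.093). Nes was dim and was detected on all 3 overexpression arrays but on 1 control array. Of the trophectoderm markers Tfap2c went the other way from the keratins, higher without overlap (0.24, limma adjusted p = 0.178), and Gata3 differed by -0.20. The fibroblast markers Vim and Thy1 differed by 0.15 and -0.15, and neither was called. Fewer cells with a transcript and less of it per cell cannot be told apart in such bulk RNA. Tested probes correlated at r = 0.990 to 0.994 within groups and at 0.978 to 0.983 between them.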

How the data were processed

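The deposited signal intensities were linear average bead signals per probe, not background-subtracted or normalized, and beside each the authors deposited a detection p-value that sets the probe against negative control beads. The authors also deposited normalized log2-scale values of 15944 probes, for which the submitters' processing notes name lumi, by a transformation not given in the sources used here. Among its 6 columns 4 correlated best with another array of the signal table than the one named, 2 of them in the other group (r of deviations with the best partner 0.975 to 0.977), so it served only as an alternative, under its own names and, added after the data were seen, matched to arrays.

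Signals of 45281 probes per array were corrected and normalized with the steps of neqc in limma 3.58.1 (R 4.3.3; normexp from detection p-values, offset 16, quantile, log2). Tested probes had detection p-values below 0.01 on 3 or more of the 6 arrays (14604; 14369 to 14769 detected per overexpression array and 14078 to 14482 per control array). A gene was its brightest tested probe by mean. A 2-group model without a block was fitted with lmFit and eBayes, over genes and over probes, adjusted by Benjamini-Hochberg at a threshold of 0.01, after a check on simulated data. Differences are overexpression minus control, and 3 arrays per group limit the precision.

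Of the listed probes 13778 had 1 symbol in the platform annotation, 6 had several and 2160 had none; 13765 matched RefSeq, which also gave start sequences (GRCm38.p6). Probes without exactly 1 symbol were not named, and 3 probes of Rps6k genes were left out. Rpl5, Rpl10, Rpl11, Rpl39l, Rps27, Rps27a, Rpsa, Fau, Rack1, Fbl and Mycn were not analysed here. Probe sequences were not used here.

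Members, lists and the rule for named genes were chosen with earlier results of these data known. The rule took called members, the 6 highest and 6 lowest differences, members whose probes disagree, and a list of well-known ribosome genes. The 4 related lists were translation factors, ribosome biogenesis factors, other ribosome-bound or TOP mRNA genes, and mTOR and MYC regulators.

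The labels number the replicates 1 to 3 in both groups and call them consecutive passages, without saying that a number marks a shared passage. Same-numbered arrays deviated together from their group means (r = 0.121, 0.390 and 0.324, against -0.311 to 0.0582 for other pairs), so a fit with the replicate number as a block was run. Other alternatives were median scaling, an offset of 50, cyclic loess, no background correction, no or a stricter detection filter, the mean of a gene's probes, trended robust variances, and leaving out each array.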

Additional observations from a re-analysis of the deposited data

How the results depend on the processing

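The call of Rpl3l and the absence of other called members held under most alternatives. Rpl3l passed under 16 of 17, at 0.49 to 1.15 on the log2 scale, the exception being the deposited values under their own sample names, where 2 columns stand in the other group. There no member and no gene passed (0 called; Rpl3l 0.20 and Prdm14 1.40, both with an adjusted p near 1), and 5 members did not overlap. With trended robust variances 2 members passed, Rpl36a (0.38) joining Rpl3l, and likewise 2 in the deposited values matched to arrays (Rpl36a 0.40). With the replicate block 1 member passed, Rpl3l (adjusted p = 0.00414), while 556 genes passed over all; the block changed no call among members. With median scaling the members' median moved to 0.052, but that of all genes moved to 0.11, so that the members' median relative to it was -0.062, where it had been 0.016 (0.044 with cyclic loess). Leaving out 1 array at a time, 1 member passed each time, Rpl3l, and the median was 0.0032 to 0.037. Members without overlap numbered 13 to 24, fewer values having to be apart, and 154 to 258 genes passed over all. For none of the alternatives was the share of all tested genes without overlap counted, so the members' counts have no background there. Of 560 values of named genes under the alternatives, 556 kept their direction or had none called and stayed on their side of the threshold, with 29 changes of sign among uncalled values. For Rpl22l1 and Rps15a, dim and undetected on 1 control array, signal over background limits the value.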
